A study of Mus musculus with 6 samples.

Results

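Aminoacyl-tRNA synthetases join each amino acid to the transfer RNAs that read its codons, and so supply every ribosome with charged tRNA. Mammalian cells carry separate nuclear genes for most cytosolic and most mitochondrial enzymes, and a group of the cytosolic enzymes is held in a multisynthetase complex by the scaffold proteins encoded by Aimp1, Aimp2 and Eef1e1. Many of the cytosolic genes are known targets of ATF4, the transcription factor of the amino acid response, which binds a composite CCAAT-enhancer/ATF element.

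The genes were found by symbol among the protein-coding rows of a count table of 15836 genes: 41 genes, of which 21 encode cytosolic enzymes, 17 encode mitochondrial enzymes (symbols ending in 2) and 3 are the scaffold genes. All 41 passed the filter on low counts that left 13243 genes. RNA had been sequenced in 6 libraries of mouse cells whose cell line is labelled CAF (commonly short for cancer-associated fibroblast) and whose tissue is labelled pancreatic tumour. The 3 MAOA-KO libraries are labelled as a knockout of MAOA, the mitochondrial monoamine oxidase that breaks down serotonin, and the 3 control libraries as wild type and control. Another label field of the MAOA-KO libraries says knockdown, and no label says how the gene was disrupted, whether the line is 1 clone or whether replicates are separate cultures, so p-values measure the spread between these libraries, which may be technical. The comparison asks how expression differs where Maoa is disrupted.

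The row named Maoa held 545, 664 and 490 counts in MAOA-KO libraries, against 1124, 1151 and 1221 counts in control libraries, but its listed locus is not that of Maoa (chrX:16619698-16687818), so it checks the labels only in part. Totals were 18631359 to 26645441 counts in MAOA-KO libraries and 23735244 to 25116027 counts in control libraries, and 3 counts correspond to 0.110 to 0.156 CPM (counts relative to library size, scaled by TMM factors), a floor that covers counting error only. The defining markers of fibroblasts did not all bear out the label: Vim was at 1770.7 CPM or more in every library, whereas Col1a1, Pdgfra and Dcn were at 2.04 CPM or less. Of the 6 fibroblast markers tested, 4 were lower in MAOA-KO, Vim among them (log2 fold change −0.94). The other 2 were higher: Acta2 (0.57), at 45.0 to 46.7 CPM in MAOA-KO libraries and 30.1 to 32.2 CPM in control libraries, and Col3a1 (0.09), whose groups overlapped, at 126 to 131 CPM in MAOA-KO libraries and 116 to 126 CPM in control libraries. Of 5 epithelial markers, Krt8, Krt18 and Krt19 were called lower, and Epcam was at 0.451 CPM or less. The 5 epithelial markers summed to 1211 to 1282 CPM in MAOA-KO libraries and 2089 to 2219 CPM in control libraries. The 10 fibroblast markers with a row summed to 1946 to 2003 CPM in MAOA-KO libraries and 3497 to 3641 CPM in control libraries, sums that are mostly Vim. Of 4 leukocyte markers only Cd68 had a row, at 44.5 to 55.7 CPM over all libraries. The epithelial sum and Vim were lower in MAOA-KO libraries, as were most synthetase genes below, and the part of these markers in the results was not tested. In bulk RNA, fewer cells of a type and less RNA per cell cannot be told apart.

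All 21 cytosolic synthetase genes were lower in MAOA-KO cells (edgeR's quasi-likelihood test, adjusted p under 0.05), where 36.9% of all tested genes were lower and 37% were higher. Their median log2 fold change was −0.58, against 0.00 over all tested genes, and ran from −1.11 for Wars to −0.11 for Dars. In 20 of the 21, every MAOA-KO library lay below every control library, which held for 37.5% of all tested genes. In 16 of the 21 the decrease passed a test against a 1.2-fold change, which 22.3% of all tested genes did. Summed over the 21 genes, the level was 6156, 6222 and 6217 CPM in MAOA-KO libraries, against 8814, 8916 and 8967 CPM in control libraries, or 30.3% lower. Of the 17 mitochondrial genes, 9 were lower, 2 were higher and 6 were not called, with a median of −0.22. Of the 3 scaffold genes, 2 were lower.

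**Figure D1:**
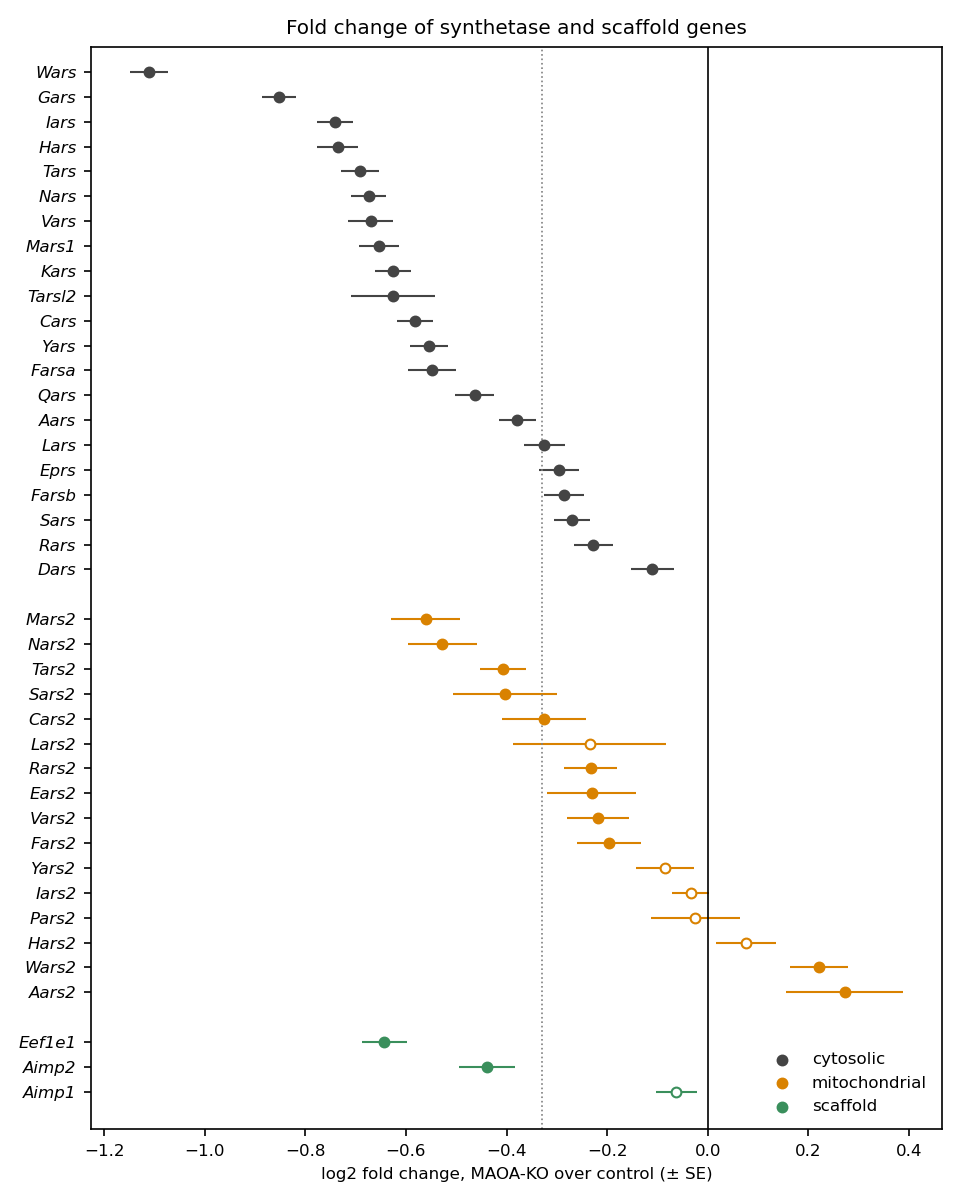
Log2 fold change of 40 of the 41 genes, MAOA-KO over control, with its standard error (n = 3 libraries each), by group. Filled points are called at an adjusted p under 0.05 and open points are not; the dotted line is the lower quartile of all tested genes (−0.33). All 21 cytosolic genes lie left of 0, and the mitochondrial genes run from −0.56 for Mars2 to 0.27 for Aars2.

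The largest decrease among the synthetases was that of Wars (chr12:108860030-108894174, minus strand, GRCm38.p6), which encodes the cytosolic tryptophanyl-tRNA synthetase and is also known as an interferon-induced gene. Wars had 227, 209 and 218 CPM in MAOA-KO libraries, against 481, 467 and 464 CPM in control libraries. The groups lay far apart, at a log2 fold change of −1.11 ± 0.04 (SE, adjusted p = 6.29e-19, edgeR's quasi-likelihood test), or 2.16-fold lower. Gars (chr6:55038007-55079500, plus strand), the glycyl enzyme, whose single gene serves cytosol and mitochondria, had 458, 453 and 454 CPM in MAOA-KO libraries, against 823, 829 and 811 CPM in control libraries. Within each group the 3 libraries of Gars nearly coincided, and the log2 fold change was −0.85 ± 0.03 (adjusted p = 1.42e-17, edgeR).

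Iars (chr13:49682100-49734267, plus strand), the isoleucyl enzyme of the multisynthetase complex, had 287, 301 and 296 CPM in MAOA-KO libraries, against 494, 481 and 503 CPM in control libraries. Its log2 fold change was −0.74 ± 0.04 (adjusted p = 9.74e-16, edgeR), with no overlap between groups. Hars, the histidyl enzyme, had 88.6, 90.2 and 95.5 CPM in MAOA-KO libraries, against 149.7, 155 and 152 CPM in control libraries, again without overlap (log2 fold change −0.74 ± 0.04). Tars (chr15:11382301-11399665, minus strand), the threonyl enzyme, had 206, 209 and 205 CPM in MAOA-KO libraries, against 321, 338 and 342 CPM in control libraries. Tars fell by 0.69 ± 0.04 on the log2 scale (adjusted p = 7.97e-15, edgeR), while Tarsl2, the threonyl-tRNA synthetase-like gene, was the scarcest of the cytosolic genes and fell by 0.63 ± 0.08 on the log2 scale. Nars, the asparaginyl enzyme, had 862, 867 and 889 CPM in MAOA-KO libraries, against 1348, 1401 and 1430.2 CPM in control libraries. Nars was the most abundant synthetase gene per length in both groups, at 327 ± 5.12 FPKM (fragments scaled by transcript length and library size) in MAOA-KO and 492 ± 14.8 FPKM in control (SD, n = 3 each), with a log2 fold change of −0.67 ± 0.03.

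Between −0.67 and −0.46 lay Vars (valyl, −0.67), Mars1 (methionyl, −0.65), Kars (lysyl, whose single gene also serves mitochondria, −0.63), Cars (cysteinyl, −0.58), Yars (tyrosyl, −0.55), Farsa (the alpha subunit of the phenylalanyl enzyme, −0.55) and Qars (glutaminyl, −0.46). Smaller decreases were those of Aars (alanyl, −0.38), Lars (leucyl, −0.33), Eprs (the fused glutamyl and prolyl enzyme, −0.30), Farsb (the beta subunit of the phenylalanyl enzyme, −0.29), Sars (seryl, −0.27) and Rars (arginyl, −0.23). Eprs, Farsb, Sars and Rars did not pass the test against a 1.2-fold change. Farsa and Farsb encode partners of a single tetramer and had different fold changes, a difference that was not tested. Dars, the aspartyl enzyme, had 201, 217 and 206 CPM in MAOA-KO libraries, against 212, 226 and 235 CPM in control libraries. Dars was the only cytosolic gene whose groups overlapped, at −0.11 ± 0.04 (adjusted p = 0.0214, edgeR). Its call was lost when libraries were scaled by their totals alone (−0.02, adjusted p = 0.621) and without MAOA-KO replicate 1 (adjusted p = 0.0674), MAOA-KO replicate 3 (0.0853), control replicate 2 (0.0624) or control replicate 3 (0.128).

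By structural class, the 9 class I genes had a median log2 fold change of −0.58 and the 11 class II genes −0.63. The 8 enzymes of the multisynthetase complex had a median of −0.39 and the 13 outside it −0.63, the complex members running from Iars (−0.74) to Dars (−0.11). For 12 genes linked to ATF4 in background knowledge the median was −0.62, and for the other 9 it was −0.55, with every gene of both sets lower. These medians were not tested against each other. Within each group the libraries were close, with a median coefficient of variation over the cytosolic genes of 2.48% in MAOA-KO libraries and 3.10% in control libraries.

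**Figure D2:**
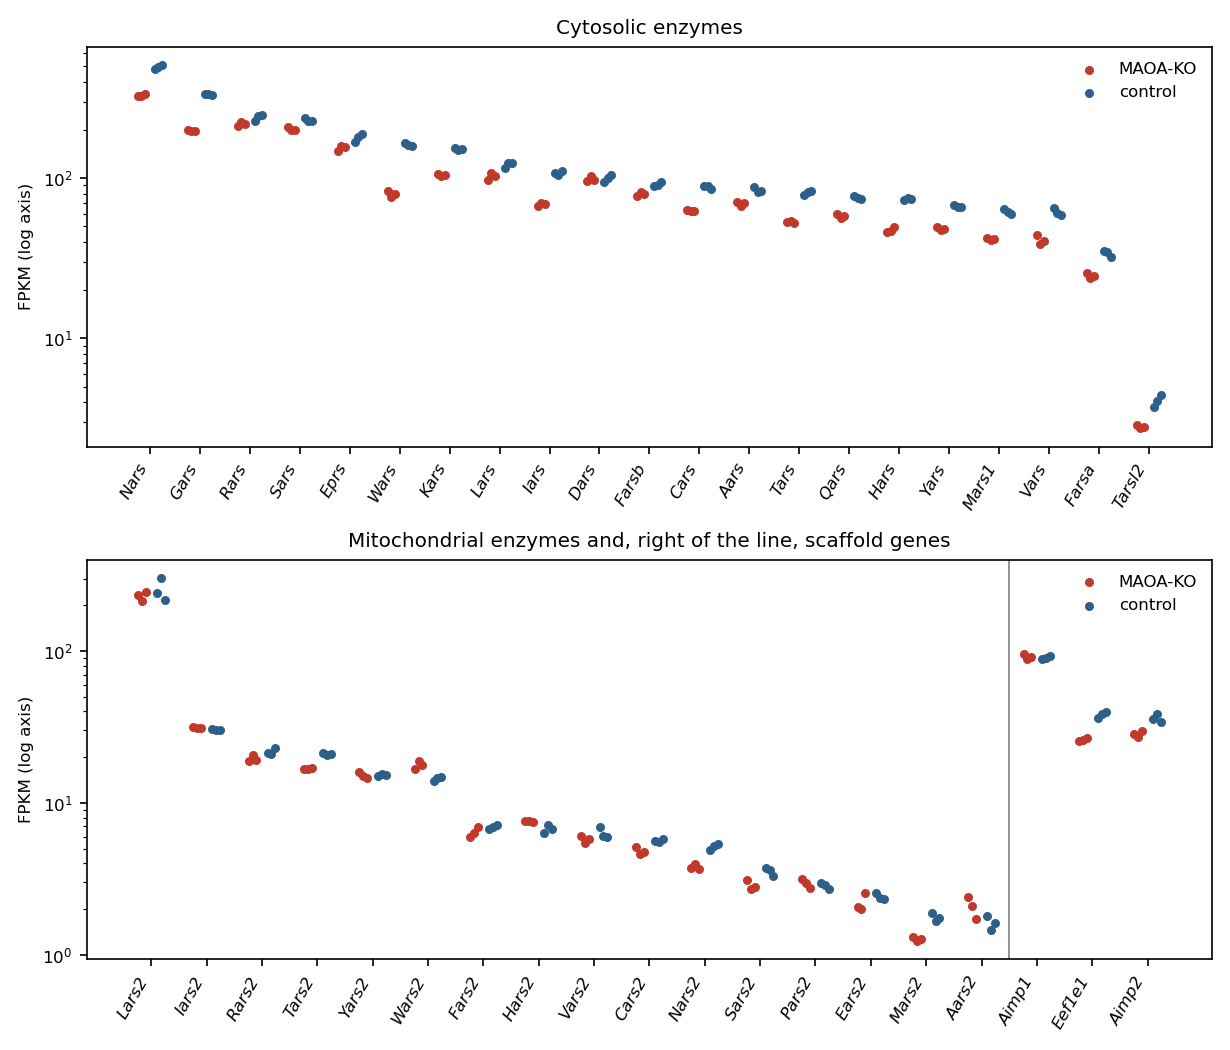
Deposited FPKM of 40 of the 41 genes in each library on a log axis, MAOA-KO left of control, cytosolic genes above and mitochondrial and scaffold genes below, ordered by their control mean. Cytosolic genes averaged 2.81 (Tarsl2) to 327 FPKM (Nars) in MAOA-KO, with a median of 69.1 FPKM. In control they averaged 4.07 to 492 FPKM, with a median of 91.4 FPKM. The median of the mitochondrial genes was 5.75 FPKM in MAOA-KO and 6.29 FPKM in control, with Lars2 highest at 229 and 254 FPKM.

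Because the cytosolic genes moved together, their promoters were searched for the CCAAT-enhancer/ATF element, written TGATGNAA, and the E-box CACGTG, on both strands. RefSeq promoter sequences (GRCm38.p6, 250 bases before to 50 after each annotated start) matched 31 of the 41 genes by symbol, with Cars, Hars, Hars2, Lars, Nars, Pars2, Rars, Vars and Wars not among them. The element was present in 5 of 14 cytosolic genes (Gars, Iars, Tars, Yars and Aars), 0 of 14 mitochondrial genes and 0 of 3 scaffold genes. For comparison, 2.87% of the 10261 protein-coding genes of the count table with such a promoter held it, as did 3.97% of all 32851 promoters in the RefSeq table. Its stricter form TGATGCAA was present in 4 of the 5 (not Gars), against 0.789% of those protein-coding genes. All 5 belong to the 12 genes linked to ATF4, of which 8 had a promoter; that set was drawn from background knowledge, which includes such sites. CACGTG was present in 4 cytosolic genes (Farsb, Aars, Iars and Tars) and 1 mitochondrial gene (Ears2), against 11.5% of the protein-coding genes. A match describes letters only and was not tested as a binding site.

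The 5 cytosolic promoters with the element, and that of Iars2 as a mitochondrial gene whose difference was not called, are shown from 220 bases before to 30 after the start, 5′ to 3′ on the gene's strand. Capitals mark TGATGNAA, its reverse complement, or CACGTG.
Gars, chr6:55037781-55038030, plus strand: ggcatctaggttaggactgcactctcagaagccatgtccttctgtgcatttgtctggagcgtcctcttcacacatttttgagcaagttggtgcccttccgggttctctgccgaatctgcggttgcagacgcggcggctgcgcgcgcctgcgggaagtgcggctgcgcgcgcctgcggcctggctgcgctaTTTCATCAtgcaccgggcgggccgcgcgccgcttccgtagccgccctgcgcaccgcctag
Iars, chr13:49681910-49682159, plus strand: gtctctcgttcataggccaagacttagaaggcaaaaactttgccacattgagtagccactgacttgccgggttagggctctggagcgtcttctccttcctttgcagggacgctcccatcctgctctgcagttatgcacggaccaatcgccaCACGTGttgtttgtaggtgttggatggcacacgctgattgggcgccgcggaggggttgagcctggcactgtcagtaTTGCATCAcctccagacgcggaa
Tars, chr15:11399629-11399878, minus strand: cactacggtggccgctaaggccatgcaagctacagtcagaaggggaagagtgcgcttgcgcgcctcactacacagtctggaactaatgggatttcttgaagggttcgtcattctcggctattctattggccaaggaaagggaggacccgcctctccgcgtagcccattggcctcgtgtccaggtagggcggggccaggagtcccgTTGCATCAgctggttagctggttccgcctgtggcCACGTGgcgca
Yars, chr4:129189683-129189932, plus strand: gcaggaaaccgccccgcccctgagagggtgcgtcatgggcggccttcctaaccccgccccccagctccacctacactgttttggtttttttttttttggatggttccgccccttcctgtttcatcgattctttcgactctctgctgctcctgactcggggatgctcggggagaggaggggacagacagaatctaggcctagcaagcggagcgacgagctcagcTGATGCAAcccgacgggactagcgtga
Aars, chr8:111033622-111033871, plus strand: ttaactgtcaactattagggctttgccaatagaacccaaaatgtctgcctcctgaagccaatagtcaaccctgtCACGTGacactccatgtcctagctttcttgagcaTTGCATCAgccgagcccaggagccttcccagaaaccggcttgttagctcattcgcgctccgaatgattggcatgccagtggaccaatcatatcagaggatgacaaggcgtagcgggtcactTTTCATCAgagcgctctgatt
Iars2, chr1:185329372-185329621, minus strand: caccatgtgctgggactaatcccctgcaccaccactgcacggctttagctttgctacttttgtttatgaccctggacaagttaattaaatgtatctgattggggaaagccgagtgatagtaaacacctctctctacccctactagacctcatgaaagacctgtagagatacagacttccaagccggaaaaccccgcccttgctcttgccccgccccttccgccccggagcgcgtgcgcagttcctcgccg
In Gars, Iars, Tars and Yars the match lay within 30 bases of the start, on either side of it. Aars held a match at bases −112 to −105 as well as a second one at bases 10 to 17. Those positions refer to a RefSeq start inside the counted Aars gene, whose listed locus begins at chr8:111033144. The fold changes of these 5 genes ran from −0.85 for Gars to −0.38 for Aars. Of the cytosolic promoters without the element, those of Mars1 (−0.65), Kars (−0.63), Tarsl2 (−0.63), Farsa (−0.55) and Qars (−0.46) belonged to genes within that range. Eprs (−0.30), Farsb (−0.29), Sars (−0.27) and Dars (−0.11), also without it, fell less than all 5. Whether fold change differs with the match was not tested.

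**Figure D3:**
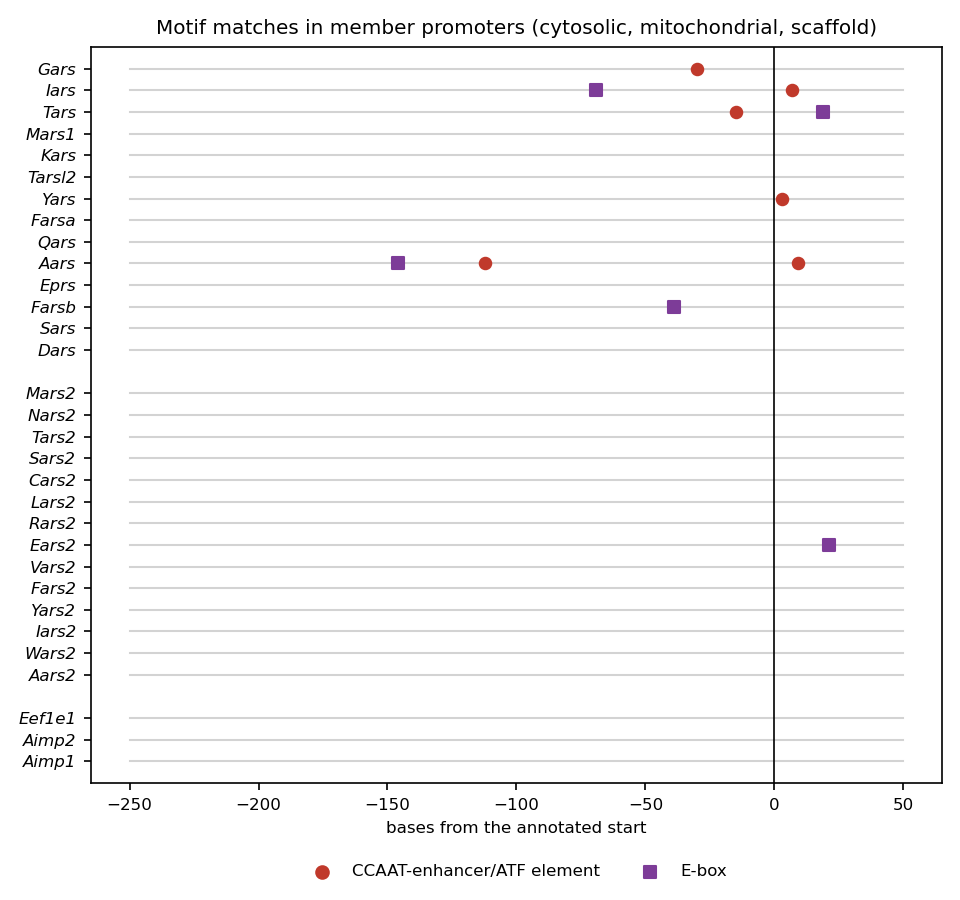
Position of each CCAAT-enhancer/ATF element (circles) and E-box (squares) in the promoter of each gene with a RefSeq promoter, in bases from the annotated start, genes ordered by log2 fold change within cytosolic, mitochondrial and scaffold groups. Circles occur in 5 cytosolic genes and in no mitochondrial or scaffold gene.

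Of the mitochondrial enzymes, Mars2, Nars2 and Tars2 fell most and were the only 3 to pass the test against a 1.2-fold change, against 11 genes called without that minimum. Tars2 (threonyl) had 38.6, 39.3 and 39.6 CPM in MAOA-KO libraries, against 52.8, 51.1 and 52.0 CPM in control libraries, at −0.41 ± 0.05 on the log2 scale (adjusted p = 1.60e-08, edgeR). Mars2 (methionyl) had 14.4, 13.5 and 13.8 CPM in MAOA-KO libraries, against 21.8, 19.4 and 20.2 CPM in control libraries (−0.56 ± 0.07). Nars2 (asparaginyl) had 13.6, 14.6 and 13.5 CPM in MAOA-KO libraries, against 18.9, 20.4 and 20.9 CPM in control libraries (−0.53 ± 0.07). In all 3 genes the groups did not overlap. Rars2 (arginyl) was also lower, with 34.1, 37.4 and 34.8 CPM in MAOA-KO libraries, against 40.7, 40.7 and 43.8 CPM in control libraries (−0.23 ± 0.05, adjusted p = 3.01e-04, edgeR).

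Sars2 (seryl, −0.40), Cars2 (cysteinyl, −0.33), Ears2 (glutamyl, −0.23), Vars2 (valyl, −0.22) and Fars2 (phenylalanyl, −0.20) made up the rest of the 9. With libraries scaled by their totals alone, Ears2, Vars2 and Fars2 lost their calls and Hars2 was called higher (0.16, adjusted p = 0.0162), so that 6 mitochondrial genes were lower and 3 higher. The call of Ears2 was also lost with DESeq2 (adjusted p = 0.0726) and without MAOA-KO replicate 1 (0.0649), MAOA-KO replicate 2 (0.130) or control replicate 1 (0.0772).

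Wars2 and Aars2 went the other way. Wars2 (chr3:99141068-99239186, plus strand), the mitochondrial tryptophanyl enzyme, had 29.7, 34.0 and 31.5 CPM in MAOA-KO libraries, against 26.3, 27.7 and 27.9 CPM in control libraries. It was the only gene of the 41 with every MAOA-KO library above every control library (0.22 ± 0.06, adjusted p = 0.00142, edgeR). Aars2, the mitochondrial alanyl enzyme, had 7.79, 6.80 and 5.58 CPM in MAOA-KO libraries, against 6.21, 5.03 and 5.57 CPM in control libraries. Its groups overlapped (0.27 ± 0.12, adjusted p = 0.0378, edgeR), and the call was lost with DESeq2 (adjusted p = 0.141) and without MAOA-KO replicate 1 (log2 fold change 0.16, adjusted p = 0.224), MAOA-KO replicate 2 (0.0616), control replicate 2 (0.182) or control replicate 3 (0.0796).

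For 6 mitochondrial genes no difference was called, of which 5 are described here. Iars2 (chr1:185284726-185329396, minus strand), the isoleucyl enzyme, had 166, 166 and 166 CPM in MAOA-KO libraries, against 172, 169.7 and 169 CPM in control libraries, a log2 fold change of −0.03 ± 0.04. Groups of Iars2 did not overlap although no difference was called, so separation alone can come with a very small difference. The tyrosyl gene Yars2 had 24.3, 23.0 and 22.3 CPM in MAOA-KO libraries, against 24.2, 25.1 and 24.6 CPM in control libraries. The prolyl gene Pars2 had 9.26, 8.77 and 8.13 CPM in MAOA-KO libraries, against 9.24, 9.01 and 8.44 CPM in control libraries. Groups of Yars2 and Pars2 overlapped, at −0.09 ± 0.06 and −0.02 ± 0.09. The histidyl gene Hars2 had 24.5, 24.6 and 24.3 CPM in MAOA-KO libraries, against 21.9, 24.6 and 23.1 CPM in control libraries. Its log2 fold change was 0.08 ± 0.06, with overlapping groups.

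Lars2 (chr9:123366927-123462666, plus strand), the mitochondrial leucyl enzyme, stood apart by its level and its spread. At 229 ± 15.9 FPKM in MAOA-KO and 254 ± 44.4 FPKM in control (SD, n = 3 each), it was listed higher per length than its cytosolic counterpart Lars, at 103 ± 5.20 FPKM in MAOA-KO and 121 ± 4.92 FPKM in control. The next mitochondrial gene, Iars2, was at 31.3 FPKM in MAOA-KO and 30.2 FPKM in control. Lars2 had 19086, 21992 and 17660 counts in MAOA-KO libraries, against 22341, 29104 and 21202 counts in control libraries. Its log2 fold change of −0.24 ± 0.15 was not called (adjusted p = 0.233, edgeR) but was without control replicate 3 (−0.34, adjusted p = 0.0440). Without control replicate 2 it was −0.09 and not called (adjusted p = 0.144). The annotated Lars2 transcript shares 72 bases at 98.6% identity with Gm15564, an antisense gene. A nuclear ribosomal RNA row, CT010467.1, had 159970, 201197 and 160852 counts in MAOA-KO libraries, against 229117, 329241 and 242911 counts in control libraries (log2 fold change −0.55 ± 0.17, adjusted p = 0.0410, edgeR). Control replicate 2 was the highest library of both rows in CPM, and the part of ribosomal RNA in the Lars2 counts was not tested.

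**Figure D4:**
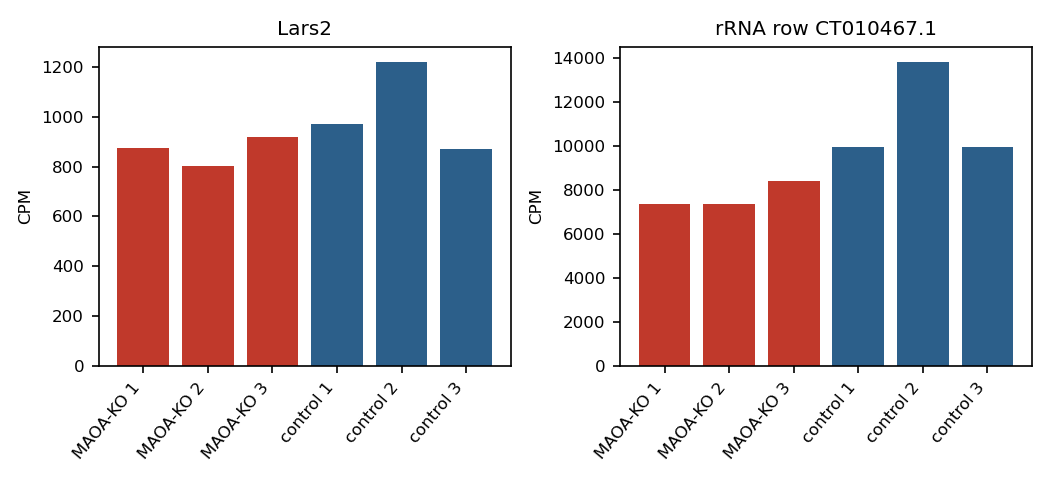
CPM of Lars2 (left) and of the ribosomal RNA row CT010467.1 (right) in each library, MAOA-KO left of control. Control replicate 2 has the tallest bar in both panels, at 1219.8 CPM for Lars2 and 13799 CPM for the ribosomal RNA row.

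Summed over the 16 mitochondrial genes other than Lars2, the level was 449, 453 and 450.4 CPM in MAOA-KO libraries, against 496, 493 and 494 CPM in control libraries. That was 8.79% lower, with no overlap between groups. On the authors' FPKM scale, which weights genes by length and uses no TMM factor, the same sum was 3.26% lower, and that of the cytosolic genes 26.7% lower.

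The enzymes of a single amino acid were then compared within each library as the log2 ratio of the mitochondrial to the cytosolic gene, in which library size cancels. In 13 of 18 pairs the ratio was higher in every MAOA-KO library than in every control library, in 0 pairs it was lower in every one, and in 5 the groups overlapped. The median difference was 0.26. Every cytosolic gene of these pairs was lower, so the ratios partly restate that result. Among single genes, every MAOA-KO library lay below every control library in 37.5% of all tested genes. No such share was computed for ratios of other gene pairs. With 3 libraries a group, an exact two-sided permutation test cannot give a p under 0.1, which each of the 13 pairs reached (0.138 adjusted over the 18 pairs), so that no single pair could pass 0.05. Fars2 and Eprs each enter 2 pairs, which are therefore not independent.

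The tryptophanyl pair differed most. Its log2 ratio was −2.93, −2.62 and −2.79 in MAOA-KO libraries, against −4.19, −4.07 and −4.05 in control libraries, a difference of 1.33 ± 0.10 (SE), with Wars lower and Wars2 higher. The isoleucyl pair had −0.79, −0.85 and −0.83 in MAOA-KO libraries, against −1.52, −1.50 and −1.57 in control libraries, a difference of 0.71 ± 0.03 that came with lower Iars and uncalled Iars2. The histidyl and alanyl pairs differed by 0.81 ± 0.05 and 0.63 ± 0.15. The pairs whose groups overlapped included the leucyl, glutamyl, arginyl and seryl ones, and Sars2/Sars had the lowest difference (−0.13 ± 0.05).

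**Figure D5:**
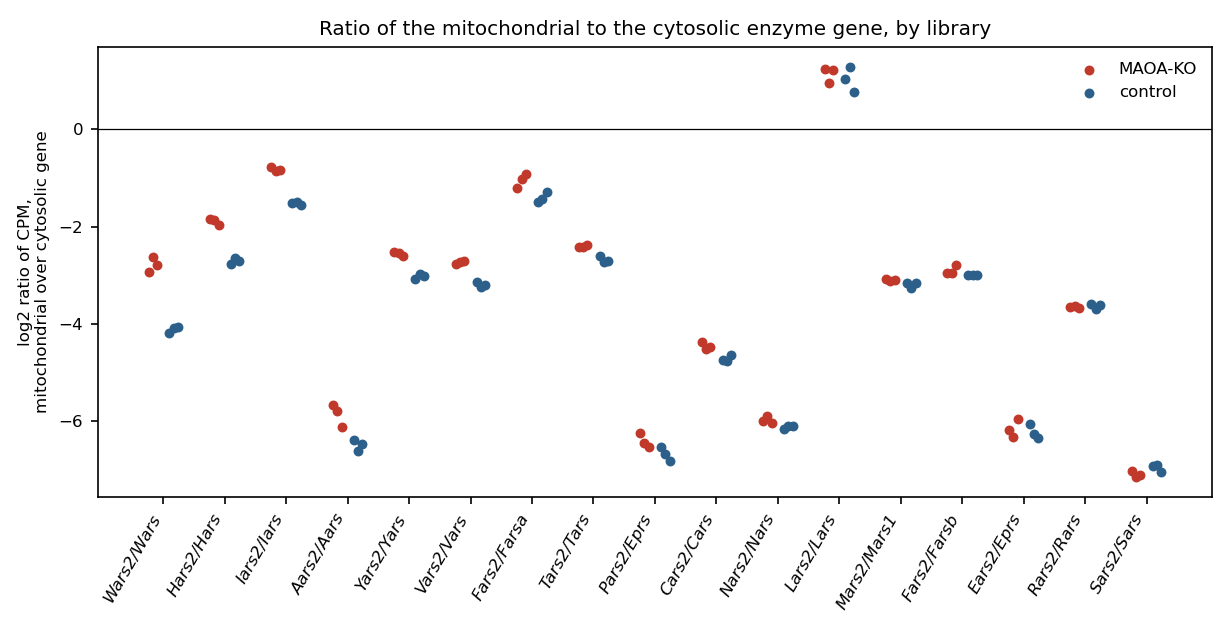
Log2 ratio of the CPM of the mitochondrial gene to that of the cytosolic gene for 17 of the 18 pairs, in each library, MAOA-KO left of control, ordered by the difference between groups. The MAOA-KO libraries lie above the control libraries in 13 pairs, most of all for Wars2/Wars (mean −2.78 in MAOA-KO and −4.11 in control).

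Of the scaffold genes of the multisynthetase complex, Eef1e1 and Aimp2 were lower and Aimp1 was not called. Eef1e1 (chr13:38644207-38659058, minus strand) had 62.7, 64.3 and 65.8 CPM in MAOA-KO libraries, against 94.6, 102 and 104 CPM in control libraries, and fell by 0.64 ± 0.04 on the log2 scale (adjusted p = 1.64e-12, edgeR). Aimp2 had 29.5, 28.4 and 30.8 CPM in MAOA-KO libraries, against 39.4, 42.5 and 37.8 CPM in control libraries, and was lower too (log2 fold change −0.44 ± 0.06). Aimp1, also known as the precursor of a secreted cytokine, had 106, 99.3 and 102 CPM in MAOA-KO libraries, against 105, 107 and 109 CPM in control libraries. Its groups overlapped and it was not called (−0.06 ± 0.04, adjusted p = 0.169, edgeR).

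Of the 40 genes with an annotated transcript of the length implied by the deposited values, 14 share 60 or more bases at 95% identity or more with another gene, and the strand setting of the counting is not given in the sources used here. Aars shares 1326 bases with Exosc6 on the same strand, and Iars shares 1656 bases at 96.0% with the pseudogene Gm4849. On opposite strands, Iars2 shares 2034 bases with Rab3gap2, Aimp2 shares 488 with Eif2ak1, Hars and Hars2 share 195 with each other, and Mars1 shares 68 with Ddit3. Values of these genes are uncertain to the extent that reads were split or counted on both.

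Genes of neighbouring steps of tRNA biology moved in both directions. The counts below stand beside all tested genes, of which 36.9% were lower and 37% were higher. A list of 21 genes held those of RNA polymerase III, which transcribes tRNA genes, of its factors and of its repressor Maf1. Of these 21, 10 were lower, Maf1 among them, and 4 higher (median −0.11). Polr3d (−0.59) and Polr3e (−0.45) were lower. Of 25 genes of tRNA processing and export, 10 were lower and 2 higher (median −0.05). Pop1, a subunit of ribonuclease P, had 23.2, 23.2 and 23.9 CPM in MAOA-KO libraries, against 59.2, 59.9 and 59.9 CPM in control libraries (−1.35 ± 0.05). Elac2, the endonuclease that trims tRNA 3′ ends, was lower (−0.95), as was Xpot, the tRNA export receptor (−0.61). Of the 2 higher genes of this list, Rpp25 rose most (1.18 ± 0.23). Its mean was 1.64 CPM in MAOA-KO libraries and 0.731 CPM in control libraries. Of 50 tRNA modification genes, 31 were lower and 7 higher (median −0.26), with Yrdc (−0.75), Dus2 (−1.20) and Pus7 (−0.70) having the lowest p.

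A list of 8 genes held those of indirect charging, through which mitochondrial glutaminyl-tRNA and selenocysteinyl-tRNA are made, and Mtfmt, the mitochondrial methionyl-tRNA formyltransferase. Of these 8, 5 were lower and 1 higher (median −0.30), where 36.9% of all tested genes were lower and 37% were higher. Gatc, a subunit of the mitochondrial amidotransferase, was lower (−0.65), whereas its partner Gatb was higher (0.20), and Sephs2 (−0.51) and Sephs1 (−0.29), of the selenophosphate synthetase family, were lower. Of 3 editing genes, Dtd1 (−0.45) and Dtd2 (−0.16), which remove D-amino acids from tRNA, were lower. Of 4 genes of elongation factor eEF1, which brings charged tRNA to the ribosome, Eef1g (−0.34) and Eef1d (−0.29) were lower and Eef1a1 (0.23) and Eef1b2 (0.12) higher. Of 10 mitochondrial translation factors, 3 were lower and 2 higher (median 0.07), with Tufm (−0.39) and Tsfm (−0.50) lower and Mtif2 (0.31) higher.

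A list of 16 genes held those of the amino acid response and all 4 kinases that phosphorylate eIF2. Of these 16, 11 were lower and 2 higher, with a median of −0.51, and the 2 higher genes were kinases. Of all tested genes, 36.9% were lower and 37% were higher. The 3 genes of this list that were not called were Atf3 (−0.07), Atf5 (0.08) and Eif2ak4. Atf4 itself had 449, 443 and 440.0 CPM in MAOA-KO libraries, against 801, 804 and 765 CPM in control libraries (−0.83 ± 0.03, adjusted p = 4.83e-17, edgeR). Trib3 (−0.70) and Ppp1r15a (−0.65), both ATF4 targets, were lower too, as was Asns, the asparagine synthetase gene (−0.41). Of the 4 kinases that phosphorylate eIF2, Eif2ak3 was lower (−0.46), Eif2ak2 (0.56) and Eif2ak1 (0.24) were higher and Eif2ak4, the sensor of uncharged tRNA, was not called (−0.04). These are RNA levels, and neither ATF4 protein nor tRNA charging was measured.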

How the data were processed

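Gene expression was measured by sequencing in 3 MAOA-KO and 3 control libraries. The deposited table holds whole-number read counts per gene, and FPKM values, which the authors scaled by gene length and library total, per the file headers. Per the file headers, further columns hold the authors' log2 fold change, its p-value and q-value, and each as −log10. The file headers name build GRCm38.p6, and the submitters' processing notes name mm10. Not given in the sources used here were the aligner, counter, strand setting and authors' test. However, the authors' log2 fold changes of Wars (−1.11896), Hars (−0.742633) and Ears2 (−0.233345) equalled those of DESeq2 run here on the same counts. The extraction protocol in the labels describes small RNA enrichment, whereas 97.8% to 98.3% of the counts of each library fell on protein-coding genes.

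The counts were fitted here over the whole table with edgeR 4.0.16 in R 4.3.3 (filterByExpr, TMM factors of 0.968 to 1.03, robust quasi-likelihood test with group as its term), with Benjamini-Hochberg adjustment over 13243 genes at 0.05. Standard errors are those of the log2 fold change. The TMM factors also scale the CPM values. Pair ratios used log2 CPM with a prior count of 0.5. Replicates of a group differed by more than counting error (mean chi-square per gene 2.00 to 4.56). Motifs were searched in RefSeq promoters, and transcripts were compared with blastn 2.17.0 against GENCODE M21. The fit was tested on simulated data in which far fewer genes changed than were called here. That test therefore does not check the scaling of libraries under such widespread change. Alternatives were DESeq2 1.42.0, other scalings, no filter, a test against a 1.2-fold change, the replicate number as a block and each library left out.

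The members and lists were chosen with earlier results of these data known. Per-library values are given for the 6 cytosolic and 4 mitochondrial genes of lowest p and for the scaffold genes. They are also given for genes against their group's majority and for genes not called. For up to 3 genes of each related list, fold changes are given by lowest p. Dars, Lars, Asns, Gatb, Eef1b2, Rpp25, Maf1, Atf3, Atf5 and the eIF2 kinases lie outside that rule and were picked with their values known. Counts cover all members, but 1 mitochondrial gene and 1 gene of a related list are not reported here by name. To check for pairing, deviations of same-numbered libraries from their group means were correlated and gave 0.367, 0.269 and 0.255 across 8993 genes, each above 0.1. However, MAOA-KO replicate 2 and control replicate 3 also correlated at 0.247, and no label says what a number shares. The main fit and the test of the pair ratios left the libraries unpaired, and the replicate number as a block was an alternative setting.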

Additional observations from a re-analysis of the deposited data

How the results depend on the processing

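Over the 41 genes and 12 alternative settings, 460 of 492 repeated values stayed on their side of the threshold, and no called value changed sign. Tested against a 1.2-fold change, 6079 genes were called in all, against 9781 without that minimum, and 3 mitochondrial genes, against 11. With each library left out in turn, 9357 to 9772 genes, 20 to 21 cytosolic, 9 to 11 mitochondrial and 2 scaffold genes were called, and 13 to 14 pair ratios stayed separate. With the replicate number as a block, which pairs same-numbered libraries, 10205 genes, 21 cytosolic, 11 mitochondrial and 2 scaffold genes were called. With libraries paired this way, the pair ratio was higher in all 3 pairs of libraries for 13 amino acid pairs. It was lower in all 3 for 1, Sars2/Sars, whose groups overlap when the libraries are not paired. The counts of genes called in each group were as without the block. Scaling by library totals alone shifted the median of all genes by 0.0864 on the log2 scale. The authors' deposited table and edgeR placed 39 of the 41 genes on the same side of 0.05, Ears2 and Aars2 being the exceptions. The deposited values of these exceptions matched those of the DESeq2 setting, so this comparison is not a check apart from that setting. For Ears2, Aars2 and Dars the call thus depends on single libraries or settings. Vars2 and Fars2 lost their calls, and Hars2 gained one, with library totals alone. Lars2 gained a call without control replicate 3, and the causes were not tested. With 3 libraries a group, single pair ratios cannot pass 0.05, and counts of genes near 10 CPM limit the precision of the scarcer mitochondrial genes.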
